A study of Arabidopsis thaliana with 12 samples.

Results

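WT leaves were compared with WT roots of Arabidopsis thaliana seedlings of the ecotype Col-0, 10 days after germination. The groups were taken from the sample titles, which gave 3 arrays of WT leaves and 3 arrays of WT roots, 6 of the 12 arrays of the series. The other 6 arrays held leaves and roots of pdx1.3 ko seedlings, a Col-0 line in which the vitamin B6 synthesis gene PDX1.3 is knocked out. They entered the estimate of the spread, the check of the labels and the choice between several probe sets of a gene. Their leaf-root difference is also set beside that of WT in later sections. All seedlings were raised on Murashige and Skoog medium of reduced strength with 1% sucrose and no vitamin B6, under 16 h of light at 22 °C and 8 h of darkness at 18 °C. The sucrose gave leaves and roots of every group a source of carbon other than photosynthesis. The organs were harvested separately, so each array measured all cell types of an organ together, and whether a lower signal came from fewer cells of a type or from less RNA per cell cannot be told apart. All 22746 probe sets that were not array controls were tested, of which 21254 named 1 gene locus, 1489 named several and 3 named none.

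A leaf blade is built around mesophyll cells whose chloroplasts capture light, fix carbon dioxide and run photorespiration, under an epidermis with stomata and a waxy cuticle. A root takes up water and mineral ions through root hairs and other epidermal cells, filters them at the endodermis, where Casparian strips and suberin seal the cell walls, and grows from a meristem beneath the root cap. Much of plant metabolism is run by gene families whose members have divided between these organs, so that one transporter or enzyme of a family works in the shoot and a close relative in the root.

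The labelled organs were checked against marker genes. The mesophyll marker RCA (AT2G39730), which activates Rubisco, had signals of 5939, 6809 and 6099 in WT leaves, against 124, 174 and 252 in WT roots. The 13 light-harvesting antenna genes summed to 46876 to 57176 per array in WT leaves, against 1794 to 2435 in WT roots, and the groups did not overlap. The 29 measured root hair genes summed to 558 to 581 in WT leaves, against 3649 to 7210 in WT roots. Signals here are MAS5 values in arbitrary units, the brightness of a probe set after each array was scaled to the same trimmed mean of 100, and they compare 1 probe set between arrays, not different genes. Of the 17 seed storage and oil body genes, 13 were called absent on all 6 WT arrays, as were 5 of 9 floral organ identity genes. The genotype field of the labels read the opposite of the titles. PDX1.3 itself followed the titles, with signals of 38.2 to 50.5 in pdx1.3 ko leaves and 82.1 to 116 in pdx1.3 ko roots, against 591, 942 and 935 in WT leaves and 264, 282 and 282 in WT roots.

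Between 63.2% and 63.5% of probe sets were called present on the WT leaf arrays, against 70.0% to 71.7% on the WT root arrays. Log2 signals correlated at r = 0.968 to 0.991 between arrays of one organ and at 0.692 to 0.735 between organs. WT leaves replicate 1 stood apart from the other leaf arrays. It lay at least 2-fold above both of them at 364 probe sets and at least 2-fold below both at 140, whereas WT leaves replicates 2 and 3 did so at 2 and 8 probe sets above and 1 and 3 below. The 3'/5' signal ratio of actin, a measure of RNA integrity, was 8.27, 6.76 and 5.36 in WT leaves, against 4.9, 4.45 and 6.4 in WT roots. The same ratio of the control GAPDH was 1.26, 1.14 and 1.14 in WT leaves, against 1.13, 1.1 and 1.27 in WT roots. The part of RNA integrity in the results was not tested. Counts of gene groups given below that moved by more than 1.5 times without that leaf array are given with and without it.

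Leaves and roots differed at most of the probe sets on the array. Of 22746 probe sets, 11953 (52.5%) differed at an adjusted p under 0.05 (limma on log2(signal + 16), Benjamini-Hochberg adjustment over all probe sets), 4750 (20.9%) of them higher in leaves and 7203 (31.7%) higher in roots. Below, a gene is called higher in an organ where it passed this test and the difference was also at least 2-fold, unless stated, and a number in brackets after a gene is its log2 difference of WT leaves minus WT roots on this scale, which understates differences of dim genes. By that rule 2618 probe sets (11.5%) were higher in WT leaves and 3190 (14%) were higher in WT roots, which makes leaf genes 45.1% of the calls. The largest differences lay on the leaf side, where 682 probe sets (3%) were at least 8-fold higher, against 388 (1.71%) that were at least 8-fold higher in roots. Over the genes named below that were called by this rule, standard errors lay between 0.09 and 0.72 and no adjusted p was above 0.007. The leaf and root signals did not overlap for 5779 of the 5808 probe sets called, against a background of 59.2% of all probe sets.

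The balance between the organs depended on what was held constant. With arrays scaled to equal medians the median difference over all probe sets moved to 0.1192 on the log2 scale, compared with -0.04781 as deposited, and leaf genes made up 53.3% of the calls (2953 higher in leaves and 2591 in roots). With arrays centred on the median of 18 reference genes the median difference was 0.6105 and leaf genes made up 77.5% (4797 and 1391), and with centring on the mean of the same genes, a setting added after the data were seen, the values were 0.1876 and 57% (3140 and 2366). All 2618 leaf calls were kept in these 3 settings, whereas 2589, 1391 and 2365 of the 3190 root calls were kept. These settings move every difference towards leaves, so leaf calls could hardly be lost and some root calls had to be. With quantile normalization 2593 leaf calls and 2924 root calls were kept. Where a group median printed below turned its sign with centring on the reference median, the value in that setting is given.

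**Figure D1:**
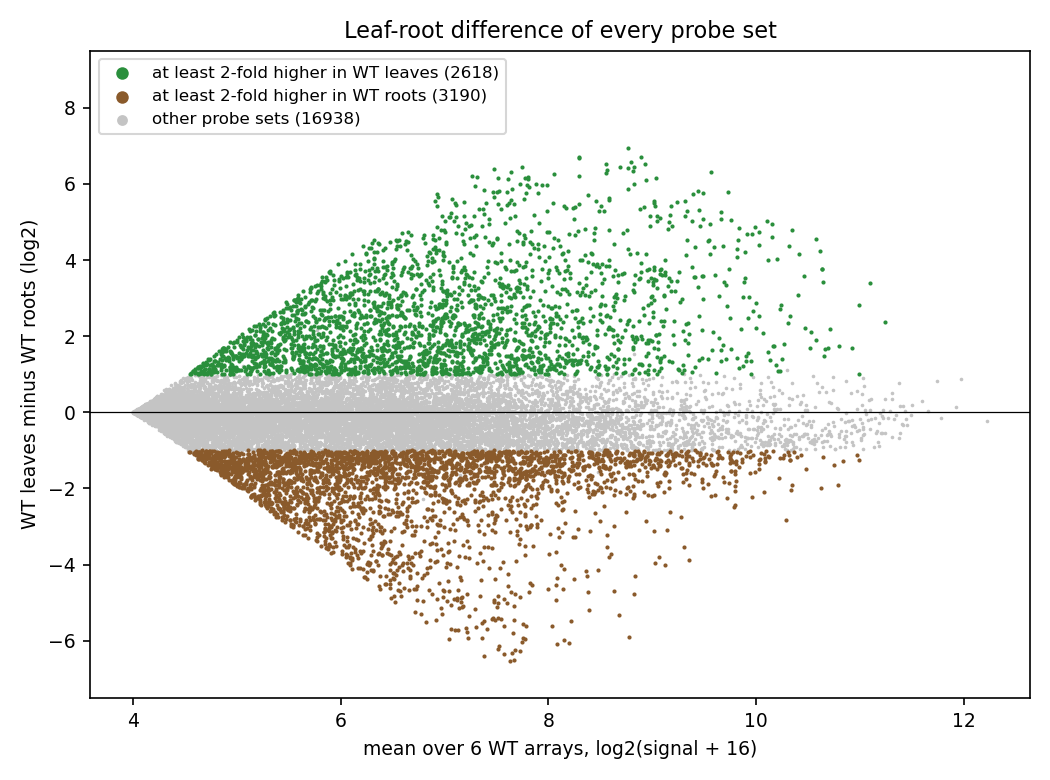
Each point is 1 of the 22746 probe sets, with its mean log2(signal + 16) over the 6 WT arrays on the x axis and the difference of WT leaves minus WT roots in log2 units on the y axis. The 2618 probe sets at least 2-fold higher in leaves are green and the 3190 at least 2-fold higher in roots are brown, and the wedge at the left edge comes from the constant of 16, which limits differences between dim signals.

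Detection calls drew a different picture from signal ratios. A total of 12472 probe sets (54.8%) were called present on all 6 WT arrays, and these held 1889 of the leaf calls and 1831 of the root calls, so most organ differences were of level and not of presence. Only 483 probe sets (2.12%) were present on all 3 leaf arrays and absent on all 3 root arrays, compared with 1481 (6.51%) present on all 3 root arrays and absent on all 3 leaf arrays. A further 4469 (19.6%) were absent on all 6. Where a gene was called absent on every array of one organ, its difference is also given as a bound ("at least N-fold"), computed from the mean log2 signal of the detected organ minus the mean, over the arrays of the other organ, of the higher of the gene's own signal and the lowest signal called present on that array. Such a bound compares means of log2 signals, as the test does, and so is a ratio of geometric means. For 35 of the 83 genes given with one, the ratio of the mean signals was smaller, and the bound was at most 1.31 times that ratio. Dim genes given with such a bound may lie under 2-fold on the log2(signal + 16) scale, and all of them passed the test, at an adjusted p of at most 0.00014.

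The largest leaf differences belonged to carbon dioxide supply and fixation. CA1 (AT3G01500), a carbonic anhydrase that interconverts carbon dioxide and bicarbonate, had signals of 3949, 5411 and 5177 in WT leaves, against 17.1, 19.9 and 35.1 in WT roots (log2 difference 6.94, SE 0.22, adjusted p = 6.32e-11). Its relative CA2 (AT5G14740) followed with 3914, 5529 and 5291 in WT leaves, against 21.7, 30.1 and 40.5 in WT roots (log2 difference 6.72, SE 0.20, adjusted p = 5.1e-11). In both genes the lowest leaf signal was far above the highest root signal. FBA1, PRK, SBPASE and GAPB, which are enzymes of the Calvin cycle, had log2 differences of 6.68, 6.44, 6.52 and 6.33. The peroxisomal enzymes HPR1 and PMDH2, which serve photorespiration, differed by 6.53 and 6.38, and the photosystem I subunit PSAD-2 by 6.41. LHCA6 (AT1G19150), an antenna protein of photosystem I, was the member of the leading 15 that was absent on all 3 root arrays, with 1141, 1795 and 2076 in WT leaves, against 1.01, 4.51 and 4.67 in WT roots, at least 584-fold higher in leaves. No root array detected it. The remaining members of the leading 15 were not photosynthesis genes by annotation. They were GER1 (AT1G72610, a germin-like protein of the cell wall, 6.44), ECS1 (6.57), a lipid transfer family protein (AT2G10940, 6.72), a gibberellin-regulated family protein (AT1G22690, 6.44) and a defensin-like protein (AT3G05730, 6.32).

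The largest root differences were spread over genes of unlike annotation. AT4G15390, annotated as an acyltransferase, had signals of 9.88, 2.64 and 3.98 in WT leaves, against 2062, 1870 and 1845 in WT roots (log2 difference -6.51, SE 0.17, adjusted p = 2.38e-11), at least 409-fold higher in roots. SUS4 (AT3G43190), a sucrose synthase that splits sucrose for use in sink organs, had 6.4, 9.45 and 6.74 in WT leaves, against 2152, 1455 and 1782 in WT roots (log2 difference -6.25, SE 0.22, adjusted p = 1.36e-10). PRP3 (AT3G62680), a proline-rich wall protein of root hairs, had 0.749, 8.93 and 6.34 in WT leaves, against 1687, 1371 and 867 in WT roots, at least 251-fold higher in roots. No leaf signal of these genes reached 10. The leading 15 also held 3 members of the major latex protein family, MLP328 (-6.33), MLP329 (-6.28) and MLP34 (-5.98), the osmotin-like OSM34 (-6.08), the basic chitinase HCHIB (-6.05) and the wall protein PELPK1 (-6.22). A pyruvate decarboxylase gene, AT4G33070, whose enzyme family opens ethanolic fermentation, was at least 266-fold higher in roots, and AT4G33720, annotated as a pathogenesis-related protein, was at least 458-fold higher, though its signal of 517 in WT roots replicate 1 was below the 1457 and 1398 of the other root arrays. AT4G39675, with no annotated function, was at least 342-fold higher, and AT5G09480, a hydroxyproline-rich protein, at least 375-fold. The set was completed by the lipid transfer family gene AT3G58550 (-5.95) and AT4G38080 (-6.03).

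**Figure D2:**
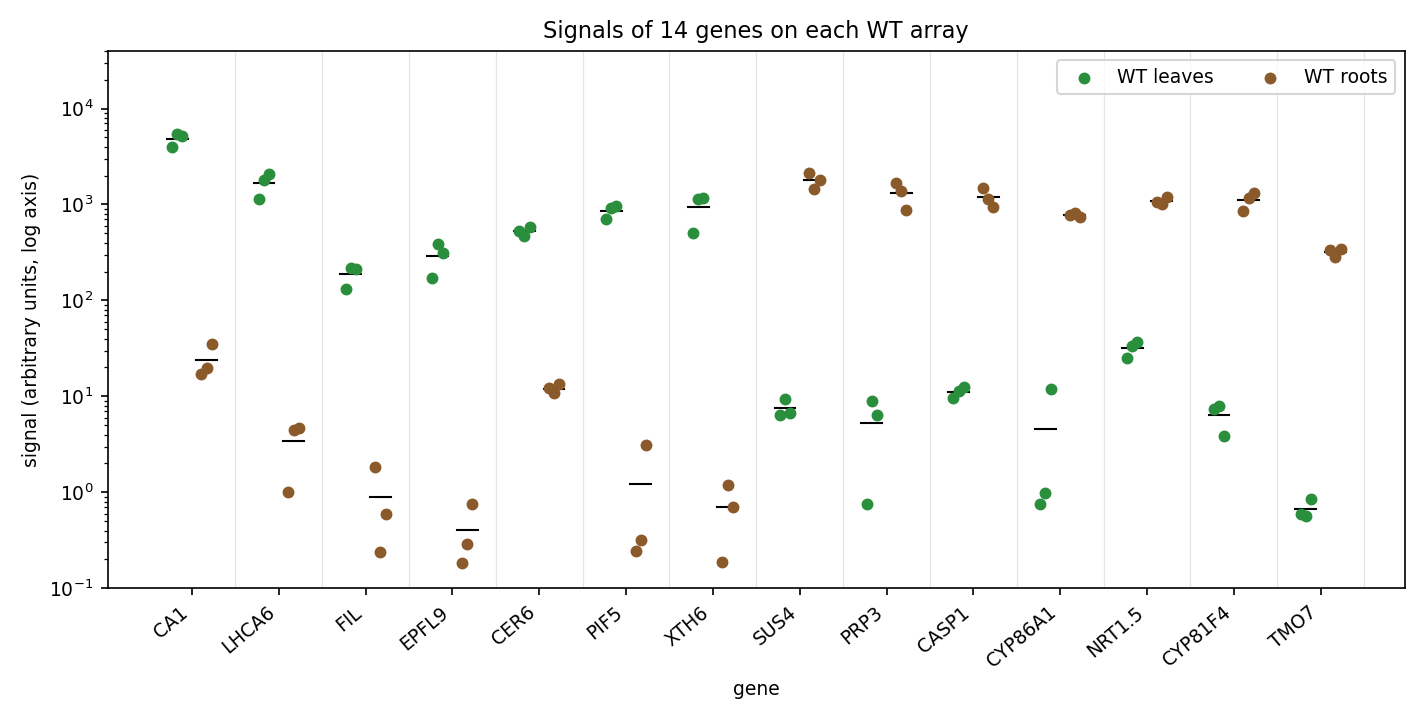
Signals of 14 genes on the 3 WT leaf arrays (green, left of each pair) and the 3 WT root arrays (brown, right of each pair) on a log axis, with the mean of each organ as a bar. The 7 genes on the left lie above 100 on every leaf array and the 7 on the right are at 283 or more on every root array, while most signals of the other organ lie under 25.

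Every measured gene of the light reactions was higher in leaves. All 37 photosystem and electron transport genes and all 13 antenna genes with a probe set of their own passed, with medians of 5.09 and 4.55, against -0.05 over all probe sets; 3 further probe sets named several antenna genes together and are not counted. PSAH2 (AT1G52230), a subunit of photosystem I, had 5761, 7134 and 7381 in WT leaves, against 72.3, 68.2 and 66.6 in WT roots (log2 difference 6.31, SE 0.27, adjusted p = 6.79e-10). LHCB2.3 (AT3G27690), part of the major antenna of photosystem II, had 2684, 3653 and 3671 in WT leaves, against 16.3, 25.9 and 41.5 in WT roots (log2 difference 6.28, SE 0.25, adjusted p = 2.77e-10). The organs did not overlap in either gene. At the small end stood PGRL1B (AT4G11960), a protein of cyclic electron flow, with 122, 152 and 150 in WT leaves, against 36.2, 49.7 and 37.2 in WT roots (1.47), and LHCB7 (AT1G76570), a little-expressed antenna protein (2.56). PSBR (3.57), FD1 (3.76), LHCA4 (3.76) and LHCB5 (3.77) were next, and their root signals all lay between 197 and 473.

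Carbon fixation and photorespiration were on the leaf side with 1 exception each. Of 17 Calvin cycle genes 16 were higher in leaves (median 5.03). The exception, CP12-3 (AT1G76560), an isoform of the small CP12 regulator, had 196, 58.1 and 76.4 in WT leaves, against 105, 110 and 80.1 in WT roots (adjusted p = 0.989), with WT leaves replicate 1 above all other arrays. TIM (1.47) and TKL1 (2.12), a triose phosphate isomerase and a transketolase, had the smallest differences that passed. Of 15 photorespiration genes 14 were higher in leaves, among them the glycine decarboxylase subunit GLDH1 (5.98), the aminotransferase AGT1 (5.51) and the plastid glycolate exporter PLGG1 (5.50). The remaining one, GOX3 (AT4G18360), a glycolate oxidase isoform, had 6.99, 10.2 and 8.07 in WT leaves, against 315, 294 and 330 in WT roots, at least 37.5-fold higher in roots. GOX3 was detected on all root arrays and on no leaf array, and whether it serves photorespiration in roots was not tested.

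Pigment synthesis was higher in leaves almost throughout. Of 23 chlorophyll synthesis genes 21 passed (median 3.16), and of 13 carotenoid genes 12 (median 2.83). GUN4 (AT3G59400), which stimulates magnesium chelatase, had 1316, 2061 and 1781 in WT leaves, against 6.28, 12.1 and 13.4 in WT roots (log2 difference 6.01, SE 0.21, adjusted p = 1.4e-10). PORC (AT1G03630), the protochlorophyllide oxidoreductase of light-grown tissue, had 886, 1478 and 1513 in WT leaves, against 8.13, 8.62 and 10.1 in WT roots (log2 difference 5.67, SE 0.18, adjusted p = 6.07e-11). Neither gene overlapped between organs. PORA, the isoform known from dark-grown seedlings, was dim but at least 6.03-fold higher in leaves. At the entry of the pathway HEMA2 (AT1G09940), a glutamyl-tRNA reductase isoform, did not pass, with 79.7, 42.6 and 48 in WT leaves, against 30.2, 60.4 and 42 in WT roots (adjusted p = 0.356). GSA1 passed the test under 2-fold (0.95). Among carotenoid genes the entry enzyme PSY (4.18) and the hydroxylase BETA-OHASE 2 (4.18) led, and the isomerase CRTISO (0.76) was the one under 2-fold.

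Regulators of greening and light receptors were mostly leaf genes, but the list had members on both sides. Of 26 measured, 18 were higher in leaves and 2 in roots (median 2.3). PIF5 (AT3G59060), a bHLH factor that phytochromes act on, had 709, 924 and 957 in WT leaves, against 0.246, 0.321 and 3.09 in WT roots, at least 601-fold higher in leaves. GLK1 (AT2G20570), a factor that activates photosynthesis genes, had 262, 174 and 266 in WT leaves, against 7.61, 2.85 and 10.8 in WT roots, at least 37.4-fold higher. Both were absent on all root arrays. The blue light receptor PHOT2 (4.34) and the plastid sigma factor SIGD (at least 90.8-fold) were also higher in leaves. The members of the opposite side were HY5 (AT5G11260), a bZIP factor of light signalling, with 26.3, 38.9 and 36.8 in WT leaves, against 111, 105 and 107 in WT roots (log2 difference -1.32, SE 0.14, adjusted p = 4.6e-06), and BBX21, a B-box protein (-1.05). With centring on the reference median neither of these was 2-fold higher in roots.

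Genes encoded in the plastid genome followed the nuclear photosynthesis genes. Of 71 chloroplast-encoded genes 59 (83.1%) were higher in leaves and 0 in roots, with a median of 2.24 (1.88 without WT leaves replicate 1). ATCG00340 had signals of 3403, 3052 and 2646 in WT leaves, against 78, 79.4 and 71.5 in WT roots (log2 difference 5.04, SE 0.15, adjusted p = 4.2e-11). ATCG00280 had 1245, 937 and 1007 in WT leaves, against 15.3, 20.5 and 19 in WT roots (log2 difference 4.97, SE 0.20, adjusted p = 3.99e-10). For both of these genes WT leaves replicate 1 was the highest leaf array. Of 39 mitochondria-encoded genes 0 were 2-fold different in either direction by limma, although 10 were higher in leaves and 0 in roots at an unadjusted p under 0.05, 22 were absent on all 6 arrays and the median was 0.10. Of 16 nuclear genes annotated as plastid ribosomal proteins 12 were higher in leaves (median 3.51), led by PSRP3/1 (4.97) and RPL9 (3.85), and 2 were higher in roots, AT1G77750 (-1.64) and AT3G06040 (-1.35).

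The epidermis of the leaf was visible in its stomatal and cuticle genes. Of 19 measured genes of guard cells and the stomatal lineage 13 were higher in leaves, 0 in roots, and 10 were present on all leaf arrays and absent on all root arrays. EPFL9 (AT4G12970), the peptide stomagen that mesophyll cells secrete to promote stomata, had 173, 384 and 313 in WT leaves, against 0.185, 0.29 and 0.75 in WT roots, at least 227-fold higher in leaves. FAMA (AT3G24140), the bHLH factor of the last step to guard cells, had 45.9, 41.9 and 36.6 in WT leaves, against 0.498, 0.752 and 2.72 in WT roots, at least 30.3-fold higher. KAT1 (AT5G46240), a guard cell potassium channel, had 95.7, 64.9 and 62.8 in WT leaves, against 0.592, 0.201 and 0.984 in WT roots, at least 60.3-fold higher. Stages of the lineage differed in how well the array saw them. The early factor SPCH was present on 1 leaf array only and MUTE on none, whereas their partners SCRM2 (2.61) and ICE1 (2.36) were present on all 6 arrays and higher in leaves. The peptides EPF1 and EPF2, which limit stomatal density, were at least 34.6-fold and at least 9.93-fold higher in leaves, and their receptor protein TMM at least 11.5-fold. Among genes of mature guard cells, the factor MYB60 (2.6) and the anion channel ALMT12 (2.33) were higher in leaves. The potassium channel GORK (-0.52) and the kinase OST1 (-0.33) passed under 2-fold on the root side.

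Wax and cutin genes were higher in leaves in 15 of 29 cases, with 2 higher in roots (median 1.07). CER6 (AT1G68530), the condensing enzyme of very long wax chains, had 527, 473 and 580 in WT leaves, against 12.1, 10.8 and 13.3 in WT roots (log2 difference 4.27, SE 0.13, adjusted p = 6.07e-11). CER2, which acts with it, had 212, 234 and 242 in WT leaves, against 2.99, 1.64 and 4.39 in WT roots (log2 difference 3.69, SE 0.14, adjusted p = 2.54e-10). The exporters CER5 (3.43) and ABCG11 (3.06) were also higher in leaves. The root-higher members were GPAT6, an acyltransferase (-1.31), and KCR1, a ketoacyl reductase shared by all very long chain products (-1.05). Without WT leaves replicate 1 the root count was 1. Of the trichome genes 3 of 13 were higher in leaves, ZFP8 (at least 16.5-fold), ETC2 (at least 16.4-fold) and the epidermal regulator TTG1 (1.06), and 0 in roots. Without WT leaves replicate 1 the counts were 4 and 1. With all arrays 2 passed under 2-fold on the root side, ETC1 (-0.97) and EGL3 (-0.68). Both were detected on root arrays alone and are given without a bound. The trichome initiator GL1 was present on 1 leaf array only.

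Genes of blade growth and polarity that differed were mostly leaf genes. Of 38 measured, 10 were higher in leaves and 2 in roots. FIL (AT2G45190), a YABBY factor of the lower leaf side, had 133, 216 and 214 in WT leaves, against 1.82, 0.241 and 0.599 in WT roots, at least 115-fold higher in leaves. Its relative YAB3 had 128, 161 and 161 in WT leaves, against 5.8, 4.33 and 6.03 in WT roots, at least 27.9-fold higher. Both YABBY genes were absent from all root arrays. TCP10 (2.28) and TCP13 (at least 18.6-fold), factors that end cell division in the blade, were leaf genes too. The members higher in roots were GIF1 (AT5G28640), a growth coactivator, with 19.1, 21 and 23.2 in WT leaves, against 125, 113 and 155 in WT roots (log2 difference -1.98, SE 0.14, adjusted p = 8.42e-08), and the factor GRF1 (-1.09), which GIF1 is known to act with. Shoot meristem genes were dim, since 7 of 14 were absent on all 6 arrays. CLV1 (1.79), PNY (1.66) and ATH1 (at least 19.7-fold) were higher in leaves, STM passed at a difference of 1.09 while called present on no array, and BP (KNAT1, AT4G08150), another class I homeobox gene, was higher in roots, with 9.85, 11.5 and 18.9 in WT leaves, against 53.2, 59.1 and 66.5 in WT roots (-1.37). Of the floral genes, SEP4 (1.73) and SEP3 (at least 13.4-fold) were higher in leaves.

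**Figure D3:**
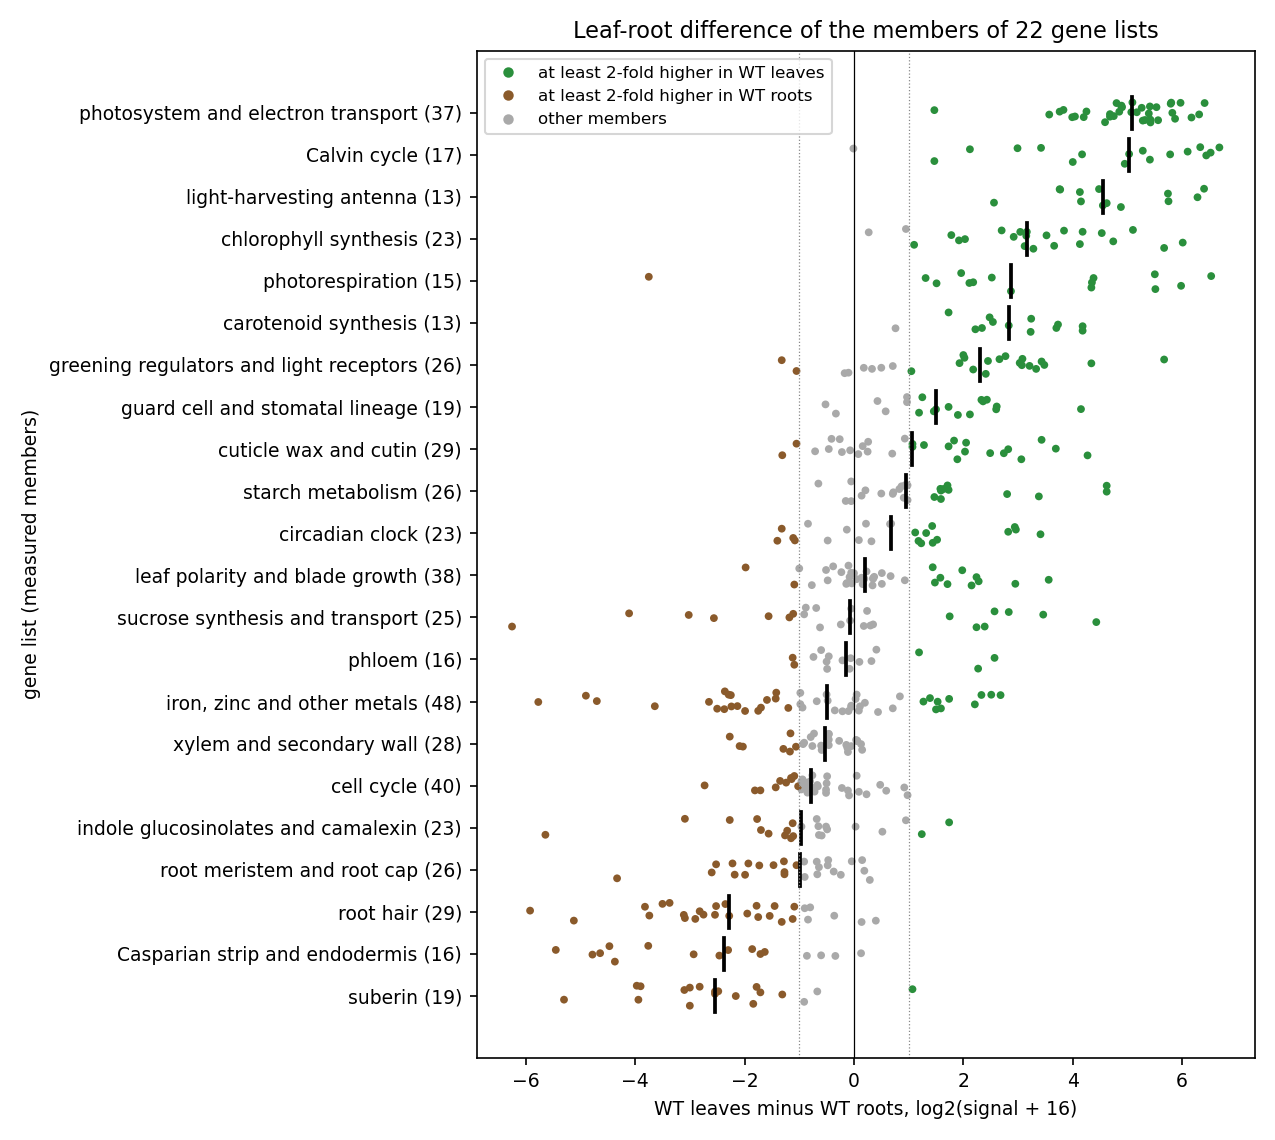
Difference of WT leaves minus WT roots, in log2(signal + 16) units, for every measured member of 22 gene lists, with the number of members in brackets and the list's median as a black bar. Lists are ordered by median: photosystem genes lie entirely to the right of the 2-fold line on the leaf side, and suberin, Casparian strip and root hair genes lie mostly to its left on the root side.

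Root hair genes were among the clearest root groups. Of 29 measured, 23 were higher in roots, 0 in leaves, and 18 were present on all root arrays and absent on all leaf arrays (median -2.28). RHD6 (AT1G66470), the bHLH factor that starts hair growth, had 0.326, 5.09 and 2.77 in WT leaves, against 36.3, 37.1 and 31.9 in WT roots, at least 11.1-fold higher in roots. RHD2 (AT5G51060), the NADPH oxidase of the hair tip, had 1.67, 1.21 and 3.03 in WT leaves, against 174, 165 and 169 in WT roots, at least 71.3-fold higher. EXPA18 (AT1G62980), a hair expansin, had 8.33, 9.5 and 9.56 in WT leaves, against 401, 298 and 159 in WT roots, at least 29.3-fold higher. Several hair genes had their lowest root signal on WT roots replicate 3. This held for EXPA18, for EXPA7 (152, 156 and 56 in WT roots), for XTH14 (1444, 880 and 448) and for AGP3 (434, 384 and 145), but not for RHD2 or for the patterning factor WER (0.575, 2.75 and 2.98 in WT leaves, against 64.4, 81.8 and 69.4 in WT roots). The largest differences of the group were those of PRP3 and XTH14 (-5.12), and the bHLH factors RSL4 (at least 7.66-fold) and LRL3 (at least 32.7-fold) were also root-detected. RSL3, a relative of RSL4, was absent on all 6 arrays. In both organs CSLD3, a cellulose synthase-like enzyme of hair walls, was detected, with 71.6, 62.4 and 47.6 in WT leaves, against 245, 227 and 262 in WT roots (-1.78).

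The endodermis and its seals formed the other clear root group. Of 16 Casparian strip and endodermis genes 12 were higher in roots (median -2.38), and 11 of the 16 were present on all root arrays and absent on all leaf arrays. CASP1 (AT2G36100), the scaffold protein of the strip, had 9.69, 11.4 and 12.6 in WT leaves, against 1495, 1139 and 942 in WT roots, at least 105-fold higher in roots. MYB36 (AT5G57620), the factor that switches on the strip genes, had 0.501, 0.527 and 0.887 in WT leaves, against 90.6, 129 and 117 in WT roots, at least 50-fold higher. ESB1 (AT2G28670), a dirigent protein that places lignin in the strip, had 12.6, 11.5 and 12.9 in WT leaves, against 766, 793 and 735 in WT roots, at least 61.9-fold higher. The scaffold, regulator and dirigent genes were detected on all root arrays and on no leaf array. The peroxidase PER64 (at least 101-fold), the kinase SGN1 (at least 149-fold) and the receptor kinase SGN3 (-2.46) followed. The upstream patterning factor SCR (AT3G54220) did not, with 140, 211 and 155 in WT leaves, against 138, 142 and 175 in WT roots (adjusted p = 0.602), and its partner SHR passed under 2-fold (-0.60).

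Suberin genes were higher in roots in 16 of 19 cases (median -2.54). CYP86A1 (AT5G58860), the omega-hydroxylase of suberin fatty acids, had 0.762, 0.976 and 11.9 in WT leaves, against 771, 816 and 733 in WT roots, at least 206-fold higher in roots. FACT, which adds ferulate to fatty alcohols, differed by -3.97, and the reductase FAR4 by -3.94. The suberin MYB factors were dim but on the same side, with MYB53 at least 6.48-fold and MYB39 at least 6.84-fold higher in roots. The single leaf-higher member was KCS20 (1.07), a condensing enzyme of very long chains.

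Genes of the root meristem and cap that differed were root genes, most of them dim. Of 26 measured, 13 were higher in roots, 0 in leaves and 13 were detected on root arrays alone (median -0.98). TMO7 (AT1G74500), a small mobile bHLH protein, had 0.598, 0.562 and 0.844 in WT leaves, against 334, 283 and 347 in WT roots, at least 144-fold higher in roots. PLT2 (AT1G51190), an AP2 factor that maintains the stem cells, had 1.43, 2.52 and 2.68 in WT leaves, against 21.4, 20.2 and 23.3 in WT roots, at least 8.72-fold higher. PLT1 (at least 5.41-fold) and the cap factor SMB (-1.27) were of the same kind. Root-expressed MADS-box genes formed a set within the group: ANR1 (at least 29.8-fold), AGL21 (at least 26.8-fold), AGL42 (at least 26.8-fold), AGL14 (at least 12.6-fold) and AGL12 (at least 10.5-fold) were each detected on root arrays alone. The cytokinin receptor AHK4 had 9.49, 10.1 and 8.16 in WT leaves, against 125, 135 and 152 in WT roots (log2 difference -2.6, SE 0.12, adjusted p = 1.75e-09). ARF10 (adjusted p = 0.289) and PLT5 (adjusted p = 0.478) did not pass.

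Vascular genes were found on both sides. Of 28 xylem genes 7 were higher in roots and 0 in leaves, with a median of -0.53 that became 0.13 with centring on the reference median. The xylan gene FRA8 (-2.27), the homeobox factor KNAT7 (-2.09) and the protease XCP1 (-2.03) led, and XCP1 varied between 99.1 and 201 over the root arrays. The switch genes of vessels and fibres were at the detection limit. SND1, NST1 and MYB83 were called present on no WT array, and VND6 and VND7 on at most 2 arrays of an organ. Among 16 phloem genes the companion cell pair SUC2 (AT1G22710), a sucrose loader, with 354, 419 and 313 in WT leaves, against 40.5, 58.4 and 44.4 in WT roots (log2 difference 2.57, SE 0.15, adjusted p = 1.09e-08), and AHA3, a proton pump (2.27), were higher in leaves, while the cambium receptor PXY (-1.12) and the receptor kinase BAM3 of protophloem (AT4G20270, -1.09) were higher in roots. Both root differences fell just under 2-fold without WT leaves replicate 1 and were under 2-fold with quantile normalization and with every centring tried.

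Sugar genes were found on both sides. Of 25 measured, 7 were higher in leaves and 7 in roots. SWEET11 (AT3G48740), which exports sucrose towards the phloem, had 725, 638 and 620 in WT leaves, against 15.9, 19.3 and 11.1 in WT roots (log2 difference 4.43, SE 0.15, adjusted p = 1.17e-10). The sucrose phosphate synthase SPS4F had 504, 518 and 555 in WT leaves, against 29.7, 34 and 36.5 in WT roots (log2 difference 3.46, SE 0.15, adjusted p = 8.93e-10). In both genes the organs were far apart, and SWEET1, a sugar carrier, was on the same side (2.83). On the root side stood the sucrose synthases SUS4 and SUS1, which had 46.5, 52.5 and 58.8 in WT leaves, against 1266, 997 and 1264 in WT roots (-4.11), and the phosphatase isoform SPP1 (at least 28.8-fold). Starch genes were higher in leaves in 11 of 26 cases and in roots in 0, led by the ADP-glucose pyrophosphorylase subunit APL1 (4.62), the granule-bound synthase GBSS1 (4.62) and the plastid beta-amylase BAM3 (AT4G17090, 3.38), a gene that shares its name with the phloem kinase. Of the large subunits of the pyrophosphorylase, APL2 did not pass (30.1 ± 1.08 in WT leaves and 31.9 ± 5.24 in WT roots, SD, n = 3 each, adjusted p = 0.794).

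Nitrogen genes showed isoform pairs with opposite sides. GLU1 (AT5G04140), the ferredoxin-dependent glutamate synthase of leaves, had 1927, 1562 and 1396 in WT leaves, against 3.78, 5.12 and 14.4 in WT roots, at least 247-fold higher in leaves. Its relative GLU2 (AT2G41220) had 41, 24.7 and 29.6 in WT leaves, against 221, 260 and 300 in WT roots (log2 difference -2.54, SE 0.14, adjusted p = 9.12e-09), and the NADH-dependent GLT1 was also higher in roots (-1.84). Glutamine synthetase repeated this. The plastid form GS2 had 3483, 4519 and 3832 in WT leaves, against 392, 468 and 486 in WT roots (log2 difference 3.09, SE 0.14, adjusted p = 1.09e-09), and the cytosolic GLN1;3 had 175, 150 and 189 in WT leaves, against 811, 745 and 938 in WT roots (log2 difference -2.18, SE 0.13, adjusted p = 1.45e-08). Among 27 nitrate and ammonium transporters 4 (14.8%) were higher in leaves and 5 (18.5%) in roots, against 11.5% and 14% over all probe sets. NRT1.11 (AT1G52190), a nitrate carrier of leaf veins, had 589, 355 and 399 in WT leaves, against 3.22, 3.8 and 4.18 in WT roots, at least 118-fold higher in leaves. NRT1.5 (AT1G32450), which loads nitrate into the xylem, had 25.1, 33.4 and 37.3 in WT leaves, against 1073, 1015 and 1203 in WT roots (log2 difference -4.54, SE 0.16, adjusted p = 1.42e-10). NRT2.5 (AT1G12940) had a signal of 218 on WT leaves replicate 1 and of 7.49 and 8.03 on the other leaf arrays, and did not pass (adjusted p = 0.13).

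Transporters for other nutrients were also found on both sides. SULTR1;2 (AT1G78000), the main sulphate uptake carrier of the root surface, had 177, 29.9 and 32.6 in WT leaves, against 973, 994 and 856 in WT roots (log2 difference -3.66, SE 0.43, adjusted p = 8.95e-06), and SULTR1;1 was at least 30.6-fold higher in roots, while the relatives SULTR3;3 (1.98) and SULTR3;1 (1.82) were higher in leaves. PHO1 (AT3G23430), which exports phosphate to the xylem, had 9.88, 28.5 and 19.6 in WT leaves, against 453, 397 and 513 in WT roots (log2 difference -3.76, SE 0.25, adjusted p = 3.29e-08), whereas the plastid carriers PHT4;1 (4.39) and PHT2;1 (4.37) were higher in leaves. For SULTR1;2, WT leaves replicate 1 was well above the other leaf arrays and still below every root array. Over the metal list 10 of 48 were higher in leaves and 19 in roots (median -0.49, and 0.17 with centring on the reference median). F6'H1 (AT3G13610), which makes iron-mobilising coumarins, had 3.55, 2.79 and 6.4 in WT leaves, against 1132, 1134 and 987 in WT roots (log2 difference -5.77, SE 0.12, adjusted p = 1.3e-11), and ABCG37, which secretes them, was at least 70.3-fold higher in roots. The zinc transporter ZIP2 differed by -4.90. Leaf-higher metal genes were YSL1 (2.68), the nicotianamine synthase NAS3 (2.51), the copper transporter COPT1 (2.33) and the reductase FRO8 (2.21). Boron carriers BOR2 (-3.54) and NIP5;1 (at least 16-fold) were higher in roots, and the vacuolar calcium exchanger CAX1 (3.06) and the plastid potassium exchanger KEA1 (2.95) in leaves.

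Aquaporins, the water channels, were also found on both sides. Of 25 measured, 4 (16%) were higher in leaves and 5 (20%) in roots, against 11.5% and 14% over all probe sets. The leaf calls included NIP7;1 (1.14), which was called absent on all 6 WT arrays. With the filter on present calls the counts were 3 in leaves and 5 in roots of 20. PIP2;6 (AT2G39010) had 1456, 1736 and 1639 in WT leaves, against 41.4, 41.5 and 49 in WT roots (log2 difference 4.76, SE 0.19, adjusted p = 3.03e-10). NIP1;1 (AT4G19030) had 6.21, 3.74 and 0.899 in WT leaves, against 477, 385 and 267 in WT roots, at least 94.9-fold higher in roots. TIP4;1 (at least 72-fold) and PIP2;4 (at least 15.9-fold) were detected on root arrays alone, and TIP2;1, a tonoplast channel abundant in both organs, was higher in leaves by 1.68.

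**Figure D4:**
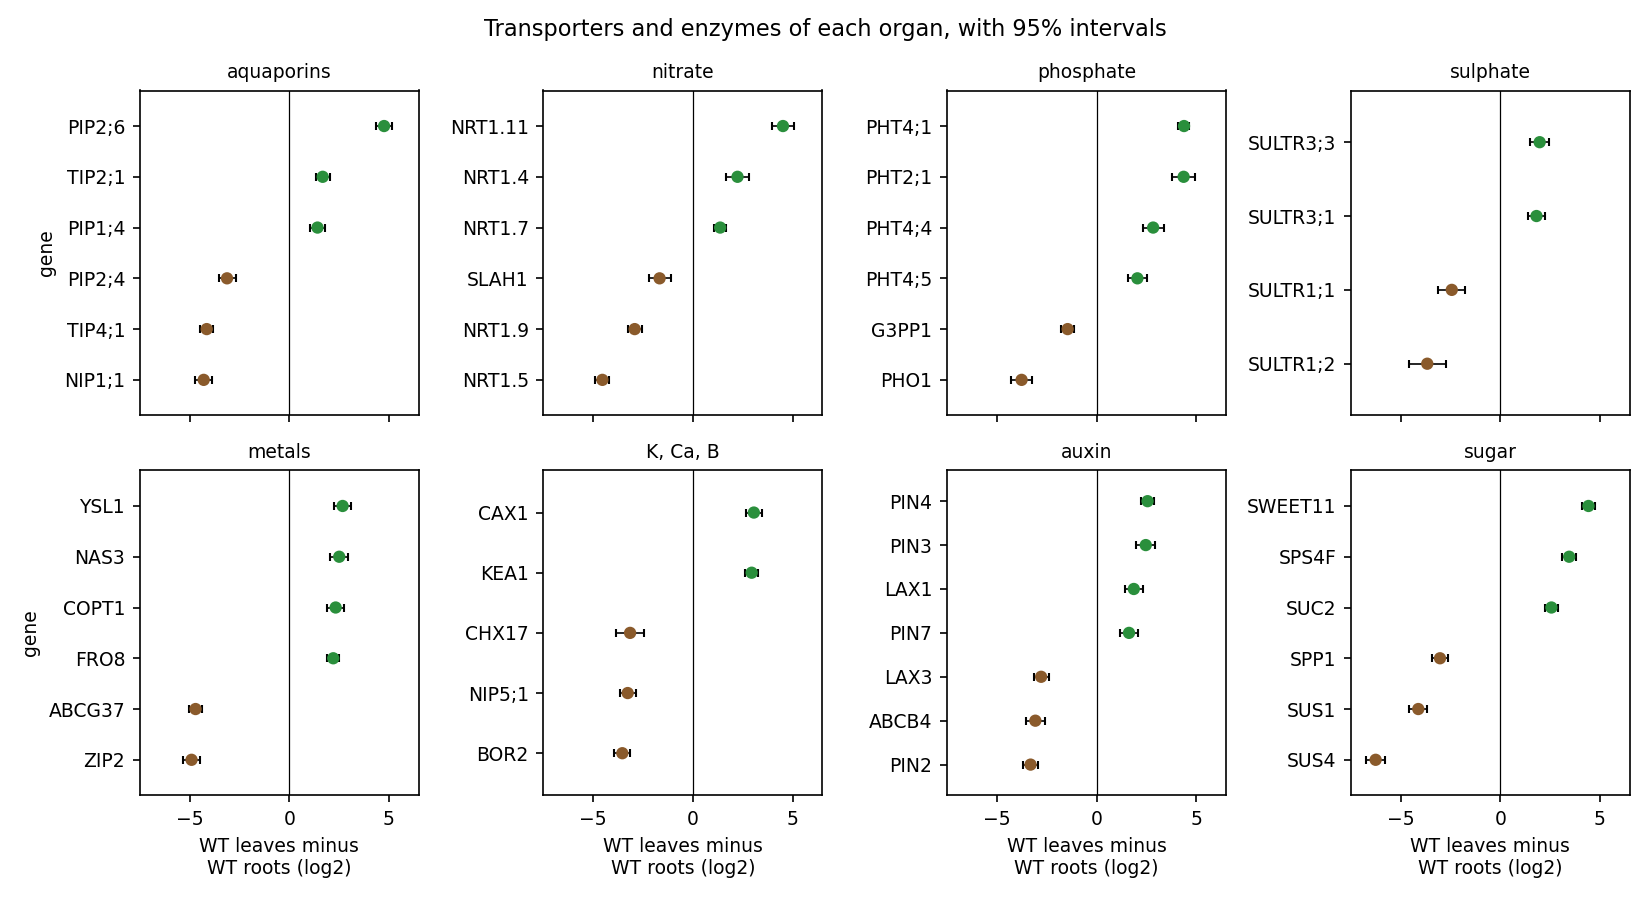
Difference of WT leaves minus WT roots in log2 units with its 95% interval for named transporters and enzymes of 8 groups, green where higher in leaves and brown where higher in roots. The genes drawn were picked from those with the largest differences on either side of their lists, so members on both sides of 0 follow from that choice. None of the intervals drawn reaches 0, and NRT2.5, which did not pass, is not drawn.

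Cell wall and secreted protein families leaned to the root. Of 58 class III peroxidases, secreted enzymes of wall cross-linking, 3 were higher in leaves and 36 (62.1%) in roots, and 24 were detected on root arrays alone (median -1.7). AT4G30170 had 11.7, 9.22 and 14.6 in WT leaves, against 1789, 1696 and 1526 in WT roots (log2 difference -5.92, SE 0.12, adjusted p = 9.65e-12), and AT3G01190 was at least 316-fold higher in roots. Against these, AT1G71695 was higher in leaves (1.7). Where 2 counts are given below, the first is of members higher in leaves and the second of members higher in roots. The shares over all probe sets were 11.5% and 14%. Chitinases (1 and 12 of 21), dirigent proteins (2 and 8 of 15), laccases (0 and 6 of 15) and jacalin lectins (2 and 10 of 25) had the same lean, and their medians stayed below 0 in all scalings tried. The single leaf-higher chitinase, AT2G43620, had 3154, 232 and 244 in WT leaves, against 42, 39.9 and 49.5 in WT roots. Its mean rested on WT leaves replicate 1, and without that array the difference was 2.09 in place of 3.3 and the chitinases had 2 leaf calls. Without it the dirigent proteins had 1 leaf call. Glutathione transferases, which are not a wall or secreted family, had 8 and 21 of 46, with GSTU18 (3.97) and GSTU25 (-4.23) at the ends.

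Other wall and secreted protein families had members on both sides, with more calls in roots as deposited. Of 33 xyloglucan endotransglucosylases 8 were higher in leaves and 12 in roots. XTH6 (AT5G65730) had 506, 1143 and 1157 in WT leaves, against 0.187, 1.2 and 0.71 in WT roots, at least 718-fold higher in leaves. No root array detected it, whereas its relative XTH14 of root hairs was strongly root-higher. Expansins had 6 and 10 of 31, with EXPA5 at least 85.1-fold higher in leaves and EXPA4 higher in roots (-3.22). Pectin methylesterases and their inhibitors had 9 and 21 of 113, led in roots by PMEPCRA, with 50.1, 77.6 and 89.6 in WT leaves, against 2308, 2150 and 2562 in WT roots (-4.76), and in leaves by AT3G62820 (3.60). Extensins and proline-rich proteins had 6 and 22 of 77, and the proline-rich pair PRP4 (4.41, leaves) and PRP3 (roots) again stood at the ends. Of 45 arabinogalactan proteins 5 were higher in leaves and 16 in roots, AGP13 being at least 170-fold higher in roots. With centring on the reference median the medians of the expansins, extensins and arabinogalactan proteins changed sign, to 0.18, 0.47 and 0.42, compared with -0.48, -0.19 and -0.24 as deposited. Lipid transfer proteins split 15 to 22 of 76, from AT5G48490 (6.12) to AT2G18370 (at least 117-fold higher in roots). Among germin-like proteins GER3 (5.2) joined GER1 on the leaf side, and AT1G18980 (at least 339-fold) and GLP4 (at least 86.8-fold) were detected on root arrays alone.

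**Figure D5:**
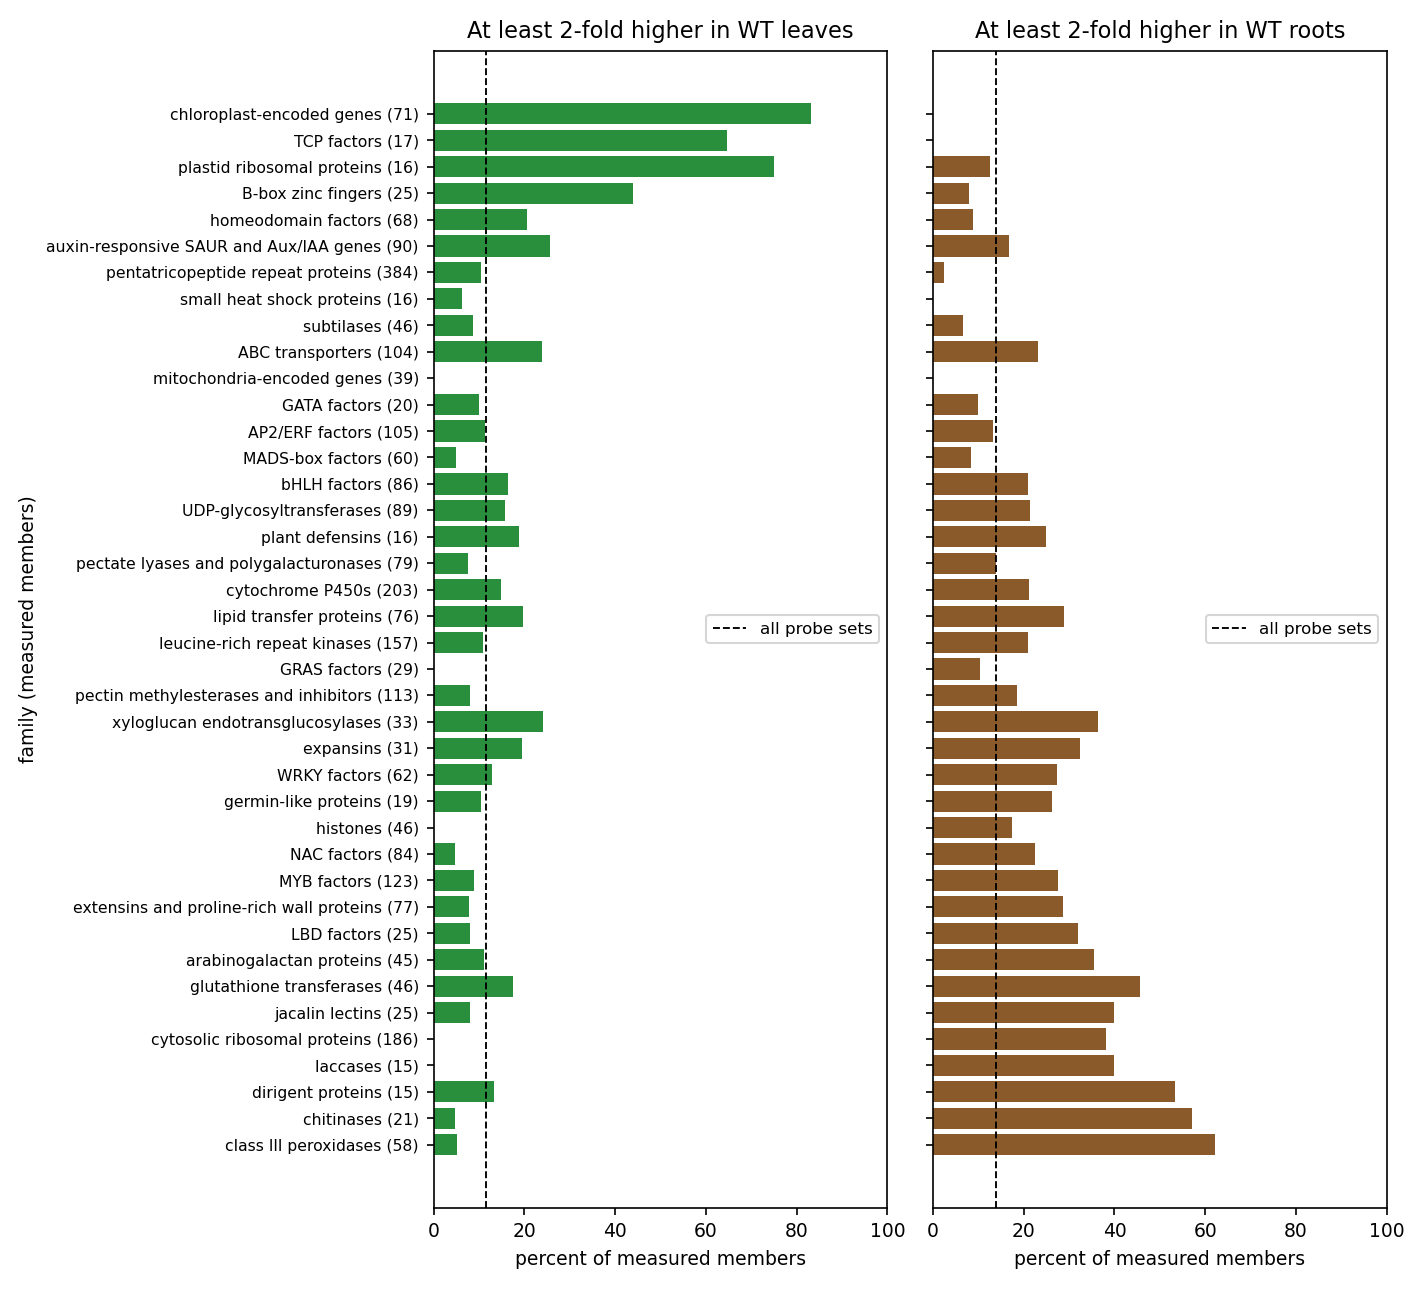
Percent of the measured members of 40 families that were at least 2-fold higher in WT leaves (left panel, green) and at least 2-fold higher in WT roots (right panel, brown), with the shares over all probe sets, 11.5% and 14%, as dashed lines. Chloroplast-encoded genes, TCP factors and plastid ribosomal proteins stand out in the left panel, and class III peroxidases, chitinases and dirigent proteins in the right panel.

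Genes of specialised metabolism were found on both sides. Most members named had the largest differences on either side of their lists, so opposed members follow from that choice. Indole glucosinolate and camalexin genes were higher in roots in 11 of 23 cases and in leaves in 2. CYP81F4 (AT4G37410), which modifies indole glucosinolates, had 7.4, 8.03 and 3.83 in WT leaves, against 865, 1158 and 1314 in WT roots, at least 180-fold higher in roots. The factors that control the pathway lay on opposite sides, MYB34 in roots (-2.27) and MYB51 in leaves (1.24), and PEN2, an enzyme that breaks indole glucosinolates down in defence, was higher in leaves (1.74). Aliphatic glucosinolate genes had 3 (13%) and 2 (8.7%) of 23, against 11.5% and 14% over all probe sets, and 6 and 1 without WT leaves replicate 1. Their chain elongation enzymes MAM1 (1.12) and MAM3 (-2.92) were opposed. Proteins that act on glucosinolates after damage were also opposed: ESM1 (AT3G14210) had 1491, 2198 and 2092 in WT leaves, against 6.31, 11.3 and 13.5 in WT roots (log2 difference 6.19, SE 0.19, adjusted p = 6.41e-11), while the jacalin JAL33 (AT3G16450) had 141, 153 and 170 in WT leaves, against 2666, 2315 and 2503 in WT roots (log2 difference -3.88, SE 0.14, adjusted p = 1.26e-10) and the endoplasmic reticulum body protein NAI2 differed by -2.19. The thalianol cluster, neighbouring genes of a root triterpene, was detected on root arrays alone, with the synthase THAS1 at least 117-fold, the hydroxylase THAH at least 180-fold and the desaturase THAD at least 92.1-fold higher in roots. Of 27 flavonoid genes 3 (11.1%) were higher in leaves (5 without WT leaves replicate 1) and 6 (22.2%) in roots. The flavonol synthase relatives FLS5 (at least 247-fold) and FLS3 (at least 80-fold) were detected on root arrays alone, and the repressor MYBL2 (AT1G71030) had 1624, 1092 and 1159 in WT leaves, against 8.29, 13.3 and 19.1 in WT roots (log2 difference 5.46, SE 0.19, adjusted p = 1.32e-10). Lignin genes had 3 and 10 of 26 (median -0.37, -0.61 without WT leaves replicate 1 and 0.29 with centring on the reference median), the laccases LAC3 (-4.08) and LAC7 (-3.88) leading in roots and the dehydrogenase CAD9 (3.20) in leaves.

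Genes of the hormone pathways were found on both sides. Most genes named were picked for the largest differences on either side of their lists, so opposed members follow from that choice. Of 28 auxin synthesis and transport genes 6 were higher in leaves and 5 in roots. PIN2 (AT5G57090), the auxin exporter of the root epidermis, had 3.05, 3.05 and 1.11 in WT leaves, against 137, 149 and 223 in WT roots, at least 58.4-fold higher in roots. PIN4 (AT2G01420) had 315, 315 and 311 in WT leaves, against 34, 37.7 and 49.4 in WT roots (log2 difference 2.56, SE 0.15, adjusted p = 1.47e-08), and PIN3 (2.47) and PIN7 (1.63) were also higher in leaves. The importers split the same way, LAX1 to leaves (1.87) and LAX3 to roots (-2.78). Auxin-responsive SAUR and Aux/IAA genes had 23 and 15 of 90, with AT4G38840 (500, 497 and 501 in WT leaves, against 2.2, 3.83 and 6.84 in WT roots) and AT4G31320 (at least 114-fold higher in roots) at the ends. Of 38 cytokinin genes 3 (7.89%) were higher in leaves and 5 (13.2%) in roots, against 11.5% and 14% over all probe sets. Among them were the activating enzymes LOG1 (2.85) and LOG7 (-2.43) and the response regulators ARR7 (2.55) and ARR3 (at least 40.4-fold higher in roots). For jasmonate, LOX2 (AT3G45140), the lipoxygenase of chloroplasts, had 529, 322 and 459 in WT leaves, against 1.77, 2.87 and 5.89 in WT roots (log2 difference 4.51, SE 0.52, adjusted p = 7.94e-06) and LOX1 had 22.1, 27.2 and 37.5 in WT leaves, against 263, 333 and 407 in WT roots (log2 difference -2.96, SE 0.17, adjusted p = 1.28e-08). For gibberellin, the responsive genes GASA6 (5.35) and GASA4 (-1.92) lay on opposite sides while most synthesis and receptor genes did not reach 2-fold. Over the list 3 of 27 (11.1%) were higher in leaves and 2 (7.41%) in roots, against 11.5% and 14% over all probe sets.

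Among transcription factor families the lean differed from family to family. TCP factors were leaf-higher in 11 of 17 cases and root-higher in 0, and B-box zinc fingers in 11 and 2 of 25. COL2 (AT3G02380) and BBX14 (AT1G68520) of the B-box family differed by 4.38 and 4.38, and BBX14 was absent on all root arrays. The bHLH factor HBI1 (AT2G18300) had 369, 383 and 353 in WT leaves, against 0.911, 0.25 and 0.746 in WT roots, at least 290-fold higher in leaves. With PIF5 and PHOT2 these were the leading regulators of the leaf side. MYB factors had 11 higher in leaves and 34 in roots of 123, NAC factors 4 and 19 of 84, and LBD factors 2 and 8 of 25, yet their medians were near 0 (-0.08, -0.13 and -0.29, and 0.58, 0.53 and 0.36 with centring on the reference median). Besides TMO7, the leading root factors were WRKY65 (19.6, 18.5 and 18.3 in WT leaves, against 510, 420 and 326 in WT roots, log2 difference -3.62), ERF71 (-3.32), the AP2 factor tny (-3.18) and MYB93 (at least 34.6-fold higher in roots). In the GATA family the greening factors GNC (at least 29-fold) and CGA1 (at least 27.2-fold) were detected in leaves alone and GATA12 (at least 10.3-fold) in roots alone. In the LBD family LBD21 (at least 62.4-fold) was a leaf gene and ASL5 (at least 34.8-fold) and LBD13 (at least 31.6-fold) root genes.

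Clock genes were leaf-higher in 11 of 23 cases and root-higher in 4. The morning factors CCA1 (261, 395 and 396 in WT leaves, against 19.8, 33.2 and 40.2 in WT roots, log2 difference 2.96) and LHY (2.82) and their partner LNK2 (3.41) were higher in leaves. The evening genes ELF4 (at least 8.59-fold), ELF3 (-1.40) and GI (-1.11) were higher in roots at 2-fold. With centring on the reference median 13 clock genes were 2-fold higher in leaves and 0 in roots, so none of these kept that call. The labels do not say whether leaves and roots were harvested at the same hour, and the part of harvest time was not tested.

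Many protein synthesis and cell division genes were higher in roots. Of 186 cytosolic ribosomal protein genes 0 were 2-fold higher in leaves, 71 in roots and 74 more passed under 2-fold on the root side, with a median of -0.83 that stayed negative in all scalings (-0.18 with centring on the reference median, where 11 were 2-fold higher in roots). AT3G16780 had 120, 172 and 150 in WT leaves, against 753, 539 and 754 in WT roots (log2 difference -2.09, SE 0.16, adjusted p = 2.01e-07). Cell cycle genes had 0 and 10 of 40 at 2-fold (median -0.79), among them the replication clamp PCNA1 (-1.81), the mitotic cyclin CYCB1;4 (at least 5.99-fold) and the division inhibitor SIM (-2.73). With centring on the reference median these counts became 4 and 3. Histones had 0 and 8 of 46, and their share of 17.4% in roots was near the 14% over all probe sets. HTA8 (-1.98) and HTA10 (-1.94) led, and the median of the histones, -0.36, became 0.30 with centring on the reference median. Pentatricopeptide repeat proteins, which process organelle RNA, had 40 (10.4%) and 9 (2.34%) of 384, with AT5G13770 (4.49) at the leaf end. Their leaf share was near the 11.5% over all probe sets, their root share was below the 14%, and their median was -0.03.

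Genes in use as references were not all level. Of 18 measured, 10 did not pass, 6 passed under 2-fold on the root side, 1 on the leaf side, and ACT8 (AT1G49240) had 445, 448 and 503 in WT leaves, against 1138, 1027 and 1035 in WT roots (log2 difference -1.17, SE 0.18, adjusted p = 0.000124). ACT2 (2491 ± 390 in WT leaves and 1937 ± 279 in WT roots, SD, n = 3 each, adjusted p = 0.115) and PP2AA3 (328 ± 11.3 in WT leaves and 299 ± 18.6 in WT roots, adjusted p = 0.54) did not pass. ACT2 passed without WT leaves replicate 1, at an adjusted p of 0.0391 by limma, with array weights (0.0068) and with arrays scaled to equal medians (0.0376). With centring on the reference median and on the reference mean both genes passed by limma. The adjusted p was 0.000117 and 0.00542 for ACT2, and 0.000921 and 0.0452 for PP2AA3. Among probe sets present on all 6 arrays, 1775 genes had a 95% interval of the difference within 0.5 log2 units of 0. The 5 narrowest of these were all dim, such as AT5G50970 (10.3, 10.3 and 6.82 in WT leaves, against 7.26, 7.81 and 6.73 in WT roots), where the constant of 16 compresses differences.

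The vitamin B6 pathway was split by subunit. PDX1.3, a catalytic subunit of pyridoxal phosphate synthase, was higher in leaves (log2 difference 1.49, SE 0.18, adjusted p = 1.07e-05), as were the salvage oxidase PDX3 (1.25) and the reductase PLR1 (2.69). The non-catalytic relative PDX1.2 (AT3G16050) had 14.7, 32.9 and 25.6 in WT leaves, against 140, 114 and 118 in WT roots (log2 difference -1.81, SE 0.20, adjusted p = 5.3e-06), and the glutaminase subunit PDX2 had 59.8, 62.8 and 68.2 in WT leaves, against 207, 161 and 177 in WT roots (log2 difference -1.31, SE 0.15, adjusted p = 6.83e-06). The salvage kinase SOS4 was higher in leaves under 2-fold (0.70). With centring on the reference median 4 of the 6 measured genes were 2-fold higher in leaves and 1 in roots, a call that PDX2 lost.

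The same organ difference was measured in the pdx1.3 ko seedlings on other arrays. There 2901 probe sets (12.8%) were at least 2-fold higher in leaves and 3529 (15.5%) in roots. Of the 2618 WT leaf calls 2356 were also called in pdx1.3 ko, 81.2% of the pdx1.3 ko list and 90% of the WT list, and of the 3190 WT root calls 2782 were, 78.8% of the pdx1.3 ko list and 87.2% of the WT list. The difference of the differences passed for 425 of 22746 probe sets (1.87%). For CA1 the leaf-root difference was 7.53 in pdx1.3 ko seedlings and 6.94 in WT, and for SUS4 it was -6.55 in pdx1.3 ko and -6.25 in WT.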

How the data were processed

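RNA of each sample was hybridised to 1 Affymetrix ATH1 array, and the authors summarised each array with MAS5 in the GCOS software, per the submitters' processing notes. The deposited signal intensities are on a linear scale, and every array had a trimmed mean of 100.0. Detection calls of present, marginal or absent were deposited beside the intensities. A second deposited table of the same arrays, used as an alternative, differed by more than rounding at 26560 of 272952 values. Groups were taken from the titles, since the genotype field contradicts them, and the descriptions and file headers follow the titles. The series names 3 biological replicates per condition, and p-values measure the spread between these samples. No depth applies to arrays, and 3 arrays per group limit the precision.

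The 64 control probe sets were left out. Log2(signal + 16) was fitted with limma 3.58.1 in R 4.3.3, with a mean for each of the 4 groups over all 12 arrays (8 residual degrees of freedom) and eBayes with a variance trend, after a check on simulated data. Benjamini-Hochberg adjustment ran over 22746 probe sets. Tables and figures were made with Python 3.11.15, numpy 2.4.6, pandas 2.3.3 and matplotlib 3.10.9.

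Gene symbols came from a RefSeq gene table, which held 20995 of the single-locus probe sets. Where a locus had several probe sets, the one with the highest mean over the 12 arrays stood for it, and probe sets with several loci were never named. Of 1100 loci in 43 gene lists, 998 were measured, and 40 families of 2820 loci were taken from the array's annotation. Named genes were the 15 largest differences on each side among single-locus probe sets present on all arrays of the higher organ with no overlap, the members of each list largest on either side, cell type markers, the 2 largest of each family on either side, the 5 leading regulators on either side, the vitamin B6 genes and the 5 least different genes. Members and lists were chosen with earlier results of these data known, so no set was tested and no pattern is independent support.

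The alternatives were quantile normalization, 3 ways of centring, other constants, a filter on present calls, the other table, only the WT arrays, a replicate block, no variance trend, array weights, stricter thresholds and leaving out each array.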

Additional observations from a re-analysis of the deposited data

Results flagged for a closer look

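The leaf-root difference in WT was compared with that in pdx1.3 ko by the interaction of the limma fit, with Benjamini-Hochberg adjustment over all probe sets. Among 267 of the genes named here 13 passed. The value given is the WT difference minus the pdx1.3 ko difference, on the log2 scale. PDX1.3, the gene knocked out, had 2.43 (adjusted p = 0.000665 by limma).

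Genes with a positive value were SWEET11 (1.1), CLV1 (1.09), SEP3 (0.68) and 3 of the thalianol cluster, THAS1 (1.6), THAH (0.83) and THAD (1.33). Both the sucrose exporter SWEET11 (3.34 in pdx1.3 ko and 4.43 in WT) and CLV1 (0.70 in pdx1.3 ko and 1.79 in WT) were thus further apart between organs in WT. For the thalianol genes, which are root genes, a positive value means that the organs were closer in WT, as for THAS1 with -5.69 in pdx1.3 ko and -4.09 in WT.

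Genes with a negative value were SULTR3;1 (-1.58), MLP34 (-1.36), MYB34 (-1.22), NRT1.5 (-1.06), F6'H1 (-0.90) and MYB39 (-0.57). The sulphate transporter SULTR3;1 had 3.41 in pdx1.3 ko and 1.82 in WT, and the factor MYB34 had -1.05 in pdx1.3 ko and -2.27 in WT. Over the 12 genes other than PDX1.3 the adjusted p by limma lay between 0.00853 and 0.0478. These 12 kept the direction of the leaf-root difference in pdx1.3 ko, whereas PDX1.3 had -0.94 in pdx1.3 ko and 1.49 in WT.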

How the results depend on the processing

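The count of 11953 probe sets called stayed within 1.5 times of its value under all settings tried. The counts of 2618 higher in leaves and 3190 higher in roots became 4797 and 1391 with centring on the reference median, 3660 and 4835 with a constant of 1, 1769 and 1664 with a constant of 64, and 1344 and 968 at 4-fold. With presence on at least 2 of 3 arrays, and on none of the other organ, 725 probe sets were detected in leaves only, compared with 483. Leaving out 1 array at a time gave 10773 to 11967 called, 2552 to 2670 higher in leaves and 3156 to 3357 higher in roots. Without WT leaves replicate 1, 2530 of the leaf calls and 3057 of the root calls were kept. The replicate block gave 11708 called, 2619 higher in leaves and 3191 higher in roots. No label says whether equal replicate numbers mark paired samples. Deviations of same-numbered leaf and root arrays correlated at -0.0719, -0.0958 and -0.0852 in WT and at 0.163, -0.173 and 0.348 in pdx1.3 ko. With 3 arrays per group these values cannot settle whether samples were paired.

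A total of 267 of the named genes were followed through these settings. Of these, SHR and APL2 changed direction with centring on the reference median (0.06 and 0.61, compared with -0.60 and -0.05 as deposited). That setting moves the median of all probe sets to 0.6105. Another 9 of the 267, among them GI, RSL4, PLT2, KCR1 and GRF1, no longer passed at an adjusted p under 0.05 there, and further root genes, such as HY5 and ELF3, passed under 2-fold. NRT2.5 passed without WT leaves replicate 2 (1.77) or 3 (1.75). In groups with 0 genes 2-fold higher in an organ, members higher there at an unadjusted p under 0.05 by limma were counted. In roots these were 2 of 19 guard cell genes, 2 of 13 trichome genes and 1 of 26 starch genes. In leaves they were 2 of 29 root hair genes, 1 of 26 root meristem genes, 4 of 40 cell cycle genes, 2 of 186 cytosolic ribosomal proteins and 3 of 46 histones. The chloroplast-encoded, TCP, laccase and xylem groups had 0.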

Other observations

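Some genes at which WT leaves replicate 1 stood apart from the other leaf arrays are given as values, and they were picked after their values were seen. FRK1 (AT2G19190), a receptor kinase gene used as a marker of responses to flagellin, had signals of 1226, 20.4 and 18.8 in WT leaves, against 4.29, 13.6 and 12.5 in WT roots. The mildew resistance locus gene MLO12 had 793, 72.7 and 63.2 in WT leaves, against 66.9, 64.5 and 54.4 in WT roots. In both genes the remaining 5 arrays lay together.

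The cytosolic glutamine synthetase GLN1;1 had 3651, 213 and 244 in WT leaves, against 1394, 1242 and 1001 in WT roots. The cell wall invertase ATBFRUCT1 had 985, 69.5 and 68.3 in WT leaves, against 766, 744 and 747 in WT roots. In these 2 genes WT leaves replicate 1 was above every root array and the other leaf arrays were below them.

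Other genes were lower on WT leaves replicate 1 than on the other leaf arrays. PR1, a marker of salicylic acid responses, had 36.8, 236 and 206 in WT leaves, against 10.4, 11.1 and 11.3 in WT roots. BBX18, a B-box protein, had 14.2, 184 and 216 in WT leaves, against 14.5, 13.1 and 22.3 in WT roots. No label separates this array from the other 2 of its group.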
